A study of Mus musculus with 2 samples.

Results

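The insulin-like growth factor (IGF) axis is described here through 10 genes, chosen by name from the 54532 genes of a mouse expression table: the ligand gene Igf1, the receptor gene Igf1r, the receptor substrate genes Irs1 and Irs2, and the binding protein genes Igfbp2, Igfbp3, Igfbp4, Igfbp5, Igfbp6 and Igfbp7. RNA was sequenced from material labelled adipose, from wild type (WT) mice and from mice with a knockout (KO) of Trappc9, a subunit gene of the TRAPP vesicle-tethering complexes, with 1 library per genotype. The design text gives 3 mice of each genotype aged 3 to 4 weeks, whose abdominal fat pads were digested with collagenase. The sample titles name stem cells derived from fat, whereas the extraction label names frozen pads; the strain, the knockout allele, the sex and any pooling of mice are not stated in the sources at hand. Values are FPKM, the fragments per kilobase of gene length scaled to library size, with the WT library first. As there is no replicate, no p-value is given, and the intervals printed are exact 95% intervals for counting error only, which compare these 2 libraries and not the genotypes.

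IGF1 is a secreted growth factor that binds the receptor tyrosine kinase IGF1R, which phosphorylates the docking proteins IRS1 and IRS2 and so starts PI3K-AKT and RAS-ERK signalling. Binding proteins hold most IGF outside cells, lengthen its life, keep it from the receptor or deliver it on proteolysis. In fat pads, IGF1 and insulin are known to favour the growth of precursor cells and their conversion to adipocytes, and stromal cells secrete several of the binding proteins.

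Recovered depth was 13705193 fragments in the WT library and 14783728 in the KO library. The targeted gene, Trappc9, was at 9.94 and 12.6 FPKM (1117 and 1432 fragments), so the knockout did not show as a lower gene-level value, and WT library and KO library below mean the libraries so labelled. The 12 adipocyte markers, none at 0, summed to 96.9 and 81.3 FPKM; of 9 measured, 2 were higher beyond counting error, Fabp4 (25.1 and 27.0 FPKM) and Pnpla2 (27.4 and 31.0 FPKM), both lower under TPM, and 4 were lower. The adipocyte hormone gene Adipoq was at 2.30 and 0.51 FPKM. By contrast, 10 markers of epididymal epithelium summed to 19303 and 26684 FPKM, and all 10 were higher in the KO library beyond counting error. In such bulk RNA, fewer cells of a type and less RNA per cell cannot be told apart.

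Most genes of the axis were slightly lower in the KO library, and none differed by as much as 1.5-fold. The ligand, both substrates and Igfbp3, Igfbp4, Igfbp5 and Igfbp6 were lower beyond counting error, by 11.7% for Igfbp3 to 24.7% for Igfbp6. Igfbp2 was 8.0% lower within counting error. The receptor gene Igf1r and Igfbp7, the most abundant of the set, were 2.4% and 4.5% higher, and both turned lower when the libraries were rescaled to TPM or by their totals. All 10 genes passed the filter of a mean of at least 1 FPKM.

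On the scale log2((KO + 1)/(WT + 1)), 0 of the 10 genes were at least 1.5-fold higher and 0 at least 1.5-fold lower, where 2.79% and 2.11% of the 13084 measured protein-coding genes were. With a threshold of 2-fold, 0 genes were called in either direction, against 0.948% higher and 0.29% lower of all genes. With 5/4-fold, Igfbp6 alone was called, as lower, against 9.31% higher and 7.64% lower. Counting error was exceeded downward by 7 genes and upward by 1, against 17.6% and 24.6% of all measured genes. These genes are well covered, and among the 9197 genes with at least as many fragments as the least covered of them (480 in both libraries together) the shares were 17.4% and 28.6%. Ratios below 1 were found for 8 of the 10 genes and for 45.3% of all measured genes. The median log2 ratio of the 10 genes was −0.21 and that of all measured genes 0.02, whose middle 90% ran from −0.41 to 0.44. After rescaling to TPM the medians were −0.41 and −0.17, and with library totals −0.30 and −0.06. Under each of these 3 scalings, 8 of the 10 genes lay below the median of all genes, and Igf1r and Igfbp7 lay above it.

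**Figure D1:**
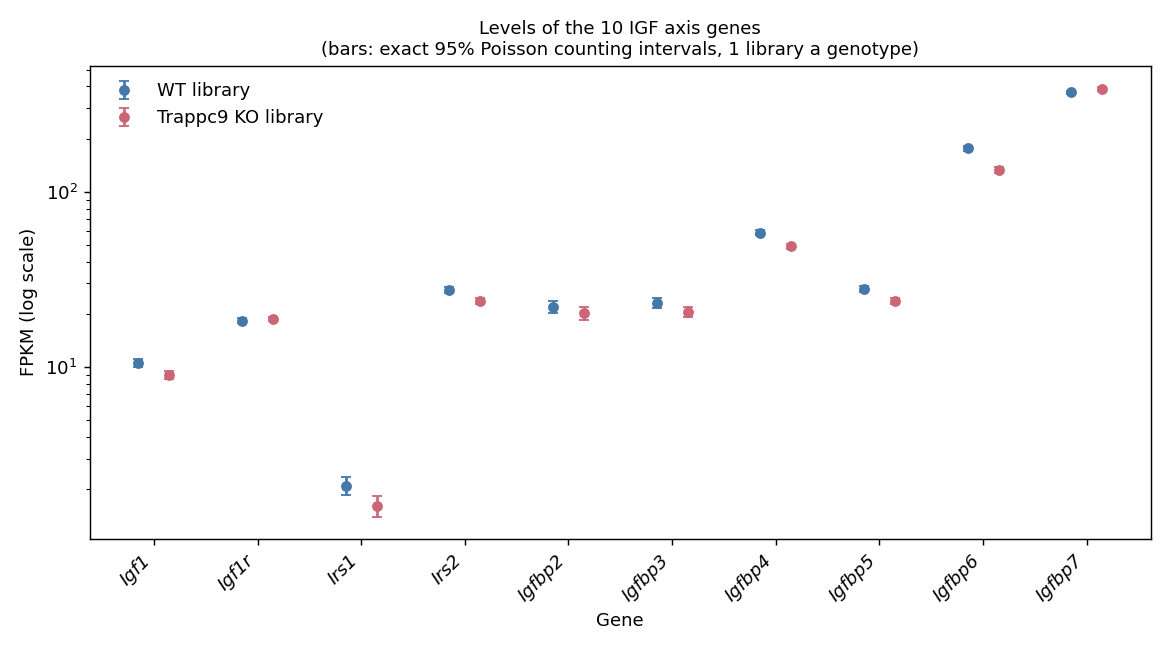
FPKM of the 10 genes on a log axis in the WT library (blue) and the Trappc9 KO library (red), with exact 95% Poisson counting intervals. Levels span from about 2 FPKM for Irs1 to more than 370 FPKM for Igfbp7, and the blue and red points of each gene lie close together.

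The order of the 10 levels was the same in both libraries. From the top it ran Igfbp7, Igfbp6, Igfbp4, Igfbp5, Irs2, Igfbp3, Igfbp2, Igf1r, Igf1 and Irs1. Neighbours in this order were apart by more than their counting intervals, except Igfbp5 and Irs2, and Igfbp3 and Igfbp2, in both libraries, and Igfbp2 and Igf1r in the KO library. Igfbp7 lay above 99.4% of measured protein-coding genes in the WT library, and Irs1 above 13.5%.

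Promoter sequence is shown for the gene with the lowest ratio, Igfbp6, and for the pair with deposited ratios above 1, Igfbp7 and Igf1r. Igfbp4 is shown as the only member with the exact letters TATAAA, the only form of TATA box searched for. Each sequence is the 120 bases before the RefSeq transcript start, read 5′ to 3′ on the gene's strand, from build GRCm38.p6. Capitals mark matches to the TATA box TATAAA on the gene's strand, and to the GC box GGGCGG and the CCAAT box on either strand.
Igfbp6: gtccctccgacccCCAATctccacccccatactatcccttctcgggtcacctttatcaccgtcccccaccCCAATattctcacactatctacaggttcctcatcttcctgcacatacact
Igfbp4: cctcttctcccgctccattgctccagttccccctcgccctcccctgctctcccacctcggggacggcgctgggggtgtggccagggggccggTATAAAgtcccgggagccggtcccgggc
Igfbp7: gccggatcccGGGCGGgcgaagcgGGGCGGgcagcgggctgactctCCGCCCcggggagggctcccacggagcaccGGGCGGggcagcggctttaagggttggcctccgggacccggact
Igf1r: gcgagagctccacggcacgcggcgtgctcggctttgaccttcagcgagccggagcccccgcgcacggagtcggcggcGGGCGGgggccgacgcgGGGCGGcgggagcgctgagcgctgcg
These stretches lie at chr15:102144066-102144185 (plus strand), chr11:99041124-99041243 (plus), chr5:77408046-77408165 (minus) and chr7:67952137-67952256 (plus). The Igfbp6 stretch was 53.3% G and C, against 78.3% for Igfbp7 and 80% for Igf1r. Among the other genes lower in the KO library, the same stretch ranged from 52.5% for Igf1 to 79.2% for Igfbp3. Between them were Igfbp5 at 55%, Irs2 at 65%, Irs1 at 67.5%, Igfbp4 at 72.5% and the pair of Igfbp2 windows at 75% and 53.3%.

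RefSeq start sites were found for all 10 genes, in 11 windows, as Igfbp2 has a pair. These sites do not all match the starts of the gene spans given below. For example, the 250-base window of Igf1, 87860861 to 87861110, lies inside the gene span. Over the 250 bases before the start, GC boxes occurred in 5 of the 11 windows (Igf1r, Igfbp2, Igfbp7, Irs1 and Irs2) and in 32.7% of 32851 mouse windows of this length. CCAAT boxes occurred in 3 (Igf1, Igfbp6 and Irs2) and in 33.8% of all. The exact letters TATAAA were found in 1 of the 11 windows and in 7.59% of all. A FOXO element, TGTTTAC on either strand, was in 0 of the 11 and in 3.17% of all, and the STAT element TTCNNNGAA in 0 and in 7.02%. The core of the hypoxia element, ACGTG on either strand, occurred in 4 windows (Igfbp2, Igfbp7, Irs1 and Irs2) and in 16.6% of all. These are matches of letters in short windows, and an absent match says only that those letters are not there.

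Igf1, the ligand, was at 10.5 FPKM in the WT library and 8.99 FPKM in the KO library, from 1479 and 1273 fragments. The gene (ENSMUSG00000020053) lies on the plus strand of chromosome 10, from 87858265 to 87937042 in mm10. Its ratio of KO to WT was 0.85 (0.79 to 0.92), and 14.0% of measured genes had a lower log2 ratio. Its antisense gene Igf1os, which overlaps its first part, had 1 and 0 fragments. GENCODE M21 lists 8 coding transcripts of Igf1, which differ in their leader and in the tail peptide removed from the hormone, and the gene-level value does not separate them.

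Igf1r, which encodes the receptor for IGF1, stood at 18.4 and 18.8 FPKM (4378 and 4526 fragments; ENSMUSG00000005533, chromosome 7, 67952827 to 68233668, plus strand). The ratio was 1.02 (0.98 to 1.07) and sat in the middle of all measured genes, 52.5% of which were lower; it was 0.96 with library totals and 0.89 after rescaling to TPM. A ratio between genes within a library does not depend on the scaling. Per kilobase, Igf1 had 0.573 times the level of Igf1r in the WT library and 0.477 times in the KO library. Of the fragments of both genes together, Igf1 held 25.3% (exact Clopper-Pearson interval 24.1 to 26.4) and 22.0% (20.9 to 23.0), intervals that do not overlap. Per kilobase, the ligand transcript was thus below the receptor transcript in both libraries, and the gap was wider in the KO library. The level in each library rests on the deposited gene length, and Igf1 has 8 coding transcripts. The order in numbers of molecules was therefore not resolved.

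The substrates link the receptor to PI3K, and Irs2 was by far the more abundant. Irs2 (ENSMUSG00000038894, chromosome 8, 10984681 to 11008458, minus strand) was at 27.6 and 23.8 FPKM from 2475 and 2155 fragments, a ratio of 0.86 (0.81 to 0.91). Irs1 (ENSMUSG00000055980, chromosome 1, 82233101 to 82291416, minus strand) was at 2.09 and 1.60 FPKM from 271 and 209 fragments, with a ratio of 0.76 (0.63 to 0.92). Irs1 made up 9.87% (8.78 to 11.0) of the fragments of the pair in the WT library and 8.84% (7.73 to 10.1) in the KO library, so a shift between the substrates was not detectable at this depth. Both substrate transcripts were thus lower in the KO library, and the make-up of the pair differed by less than counting error.

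Igfbp6, whose product prefers IGF2 to IGF1, had the lowest ratio of the set. It stood at 177 FPKM in the WT library and 133 FPKM in the KO library, from 2791 and 2122 fragments (ENSMUSG00000023046, chromosome 15, 102144362 to 102149511, plus strand). Its ratio was 0.75 (0.71 to 0.80) and its log2 ratio −0.41, with 5.11% of measured genes lower. That places Igfbp6 at the edge of the middle 90% of all genes. Its nearest coding neighbours, Spryd3 (19.5 and 22.4 FPKM) and Soat2 (0.45 and 0.19 FPKM, 14 and 6 fragments), lie 8127 and 1014 bases away.

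Igfbp7 encodes a secreted protein of vessels and matrix that binds IGFs weakly and has a fold in common with the other binding proteins. At 370 and 387 FPKM (6337 and 6690 fragments; ENSMUSG00000036256, chromosome 5, 77349240 to 77408041, minus strand), it had a ratio of 1.05 (1.01 to 1.08). With library totals the ratio was 0.98, and after rescaling to TPM 0.91. Polr2b, a subunit gene of RNA polymerase II on the opposite strand, overlaps the end of Igfbp7 by 85 bases and was at 16.9 and 17.7 FPKM. The sources used here do not say whether the counting used strand.

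Igfbp4, which inhibits IGF action until it is cleaved, ranked below Igfbp6 in level. It had 58.4 and 49.0 FPKM from 3651 and 3094 fragments (ENSMUSG00000017493, chromosome 11, 99041244 to 99054392, plus strand), a ratio of 0.84 (0.80 to 0.88). The nearest coding gene on one side of Igfbp4, at 17054 bases, is the mitotic gene Top2a, at 11.9 and 5.99 FPKM.

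Igfbp5 and Igfbp2 are neighbours on chromosome 1, arranged tail to tail with 5457 bases between them. Igfbp5 (ENSMUSG00000026185, 72857932 to 72874884, minus strand), which binds matrix, was at 27.9 and 23.8 FPKM from 2374 and 2047 fragments, a ratio of 0.85 (0.80 to 0.91). Igfbp2 (ENSMUSG00000039323, 72824503 to 72852474, plus strand), a binding protein abundant in serum and made by fat precursor cells, was at 22.1 and 20.3 FPKM from 577 and 536 fragments, a ratio of 0.92 (0.82 to 1.04). Igfbp2 held 19.6% (18.1 to 21.0) and 20.8% (19.2 to 22.4) of the fragments of the pair. The intervals overlap, so a difference between these neighbours was not detectable.

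Igfbp3, the main carrier of IGFs in serum, also has a binding protein gene as neighbour. It was at 23.2 and 20.5 FPKM from 1030 and 918 fragments (ENSMUSG00000020427, chromosome 11, 7206086 to 7213923, minus strand), a ratio of 0.88 (0.81 to 0.97). Igfbp1, a liver binding protein that insulin represses, lies tail to tail with it at a distance of 3539 bases. At 0.65 and 1.33 FPKM, Igfbp1 had only 14 and 29 fragments, and its ratio of 2.05 has an interval of 1.05 to 4.20. The neighbours thus stood on opposite sides of 1, with Igfbp1 near the limit of what the depth resolves.

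**Figure D2:**
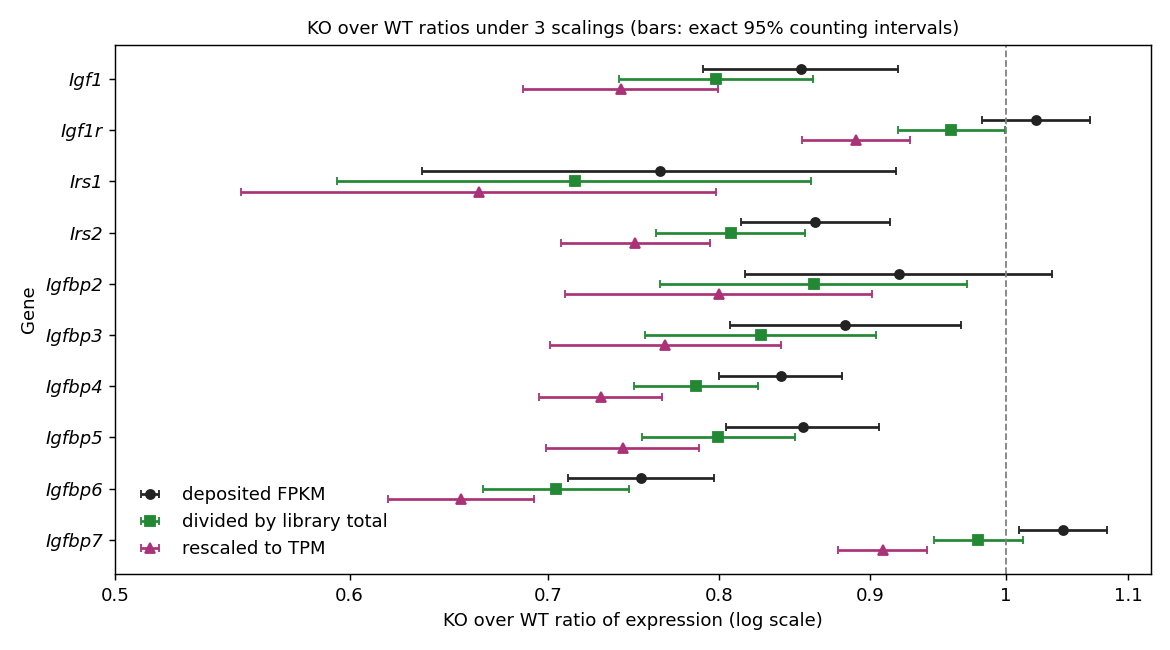
KO over WT ratio of each gene on a log axis, with exact 95% counting intervals, for deposited FPKM (black circles), library totals (green squares) and TPM (purple triangles). The dashed line marks a ratio of 1; Igfbp6 is the leftmost black point and Igf1r and Igfbp7 are the black points to the right of the line, left of it under the other scalings.

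The make-up of the binding protein transcripts differed between the libraries, with more Igfbp7 and less Igfbp6 in the KO library. The 6 genes summed to 679 FPKM in the WT library and 634 FPKM in the KO library, a ratio of 0.93. Without Igfbp7 the sums were 309 and 247 FPKM, a ratio of 0.80. Igfbp7 made up 54.5% of the sum in the WT library and 61.0% in the KO library, and Igfbp6 made up 26.1% and 21.0%. Igfbp4 followed with 8.60% and 7.73%, and the other 3 held 3.20% to 4.11% each. Set against the ligand, the sum of all 6 was 64.4 times the Igf1 level in the WT library and 70.5 times in the KO library. The direction of that difference rests on Igfbp7. Without Igfbp7 the ratio of the sums, 0.80, was below that of Igf1, 0.85, so the multiple was lower in the KO library.

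These shares do not depend on how the libraries are scaled. Among the fragments of Igfbp6 and Igfbp7 together, Igfbp6 held 30.6% (29.6 to 31.5) in the WT library and 24.1% (23.2 to 25.0) in the KO library. Igfbp4 held 36.6% (35.6 to 37.5) and 31.6% (30.7 to 32.6) of its fragments with Igfbp7, and Igfbp5 held 27.3% (26.3 to 28.2) and 23.4% (22.5 to 24.3). For Igfbp3 the shares were 14.0% (13.2 to 14.8) and 12.1% (11.3 to 12.8). All of these 4 pairs of intervals are apart. For Igfbp2, at 8.35% (7.70 to 9.02) and 7.42% (6.82 to 8.05), they overlap.

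**Figure D3:**
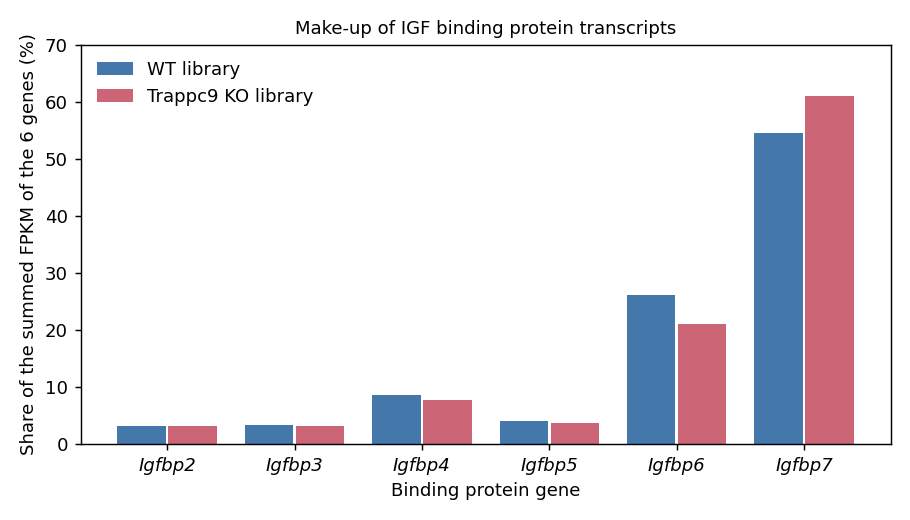
Share of each binding protein gene in the summed FPKM of the 6 genes, in percent, in the WT library (blue) and the Trappc9 KO library (red). Igfbp7 makes up 54.5% and 61.0% of the sum and Igfbp6 26.1% and 21.0%.

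Most stromal markers differed in the same direction as most of the axis, and their list medians were lower than that of the axis, −0.21. Of 12 fibroblast and progenitor markers, 10 were lower and 2 higher in the KO library beyond counting error, and none was at 0. Their summed level was 1708 and 1258 FPKM (median log2 ratio −0.44), most of it from Col1a1 (531 and 377 FPKM) and Col3a1 (481 and 312 FPKM). The 2 higher were Ly6a (0.22) and Dpp4 (0.18, but −0.02 under TPM). Pdgfra (−0.15) and Dcn (−0.09) were lower by less than the median of the axis. All 18 extracellular matrix genes, some of them in both lists, were lower, with sums of 2099 and 1465 FPKM and a median of −0.49. The 12 proliferation genes, all lower, summed to 96.0 and 48.2 FPKM. Blood endothelial markers summed to 93.9 and 107 FPKM, with 6 of 10 higher and 1 lower (median 0.18, but −0.01 after rescaling to TPM), and mural cell markers to 662 and 658 FPKM. For mesothelial markers, 2 of 7 measured were higher and 5 lower, with sums of 164 and 160 FPKM over 8 genes. General epithelial markers summed to 961 and 991 FPKM and macrophage markers to 260 and 257 FPKM, with none of either list at 0. Beside the counts in these lists, 17.6% of all measured genes were lower and 24.6% higher beyond counting error. The part of these markers in the values of the IGF axis was not tested.

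Other ligands, receptors and substrates were mostly scarce. Igf2, the fetal IGF ligand, had 9 and 11 fragments (0.11 and 0.13 FPKM). The insulin genes Ins1 and Ins2 had 0 fragments in both libraries, which allows up to 0.208 and 0.161 FPKM in the WT library and 0.206 and 0.160 FPKM in the KO library (3 fragments). The insulin receptor gene Insr was at 9.30 and 9.96 FPKM, a ratio of 1.07 (1.00 to 1.14), and turned lower after rescaling to TPM. Igf2r, whose product clears IGF2, was at 11.4 and 11.7 FPKM (1.03, 0.96 to 1.10). Igf1r held 70.7% (69.6 to 71.9) and 69.8% (68.7 to 70.9) of the fragments of Igf1r and Insr together, intervals that overlap.

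Among these core relatives, 2 genes of low level had the lowest ratios. Insrr, an orphan receptor of the insulin receptor family, was at 2.83 and 1.52 FPKM (229 and 124 fragments), a ratio of 0.54 (0.43 to 0.67). Irs4, a further substrate, was at 3.21 and 1.95 FPKM (286 and 176 fragments), a ratio of 0.61 (0.50 to 0.74). Irs3 (7 and 14 fragments) and Igfals, the acid-labile subunit that stabilises IGF in serum (7 and 6 fragments), were too scarce for a comparison. The RNA-binding protein genes Igf2bp1, Igf2bp2 and Igf2bp3 were all below a mean of 1 FPKM, with Igf2bp2 highest at 1.07 and 0.76 FPKM.

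Genes that process or regulate the binding proteins leaned lower. Of 13 listed, 11 were measured, with a median of −0.25. Beyond counting error, 7 were lower and 2 higher, where 17.6% and 24.6% of all measured genes were. Mmp2, a gelatinase, was at 39.1 and 24.7 FPKM (log2 ratio −0.64). Htra3, a secreted serine protease, was at 31.7 and 22.3 FPKM (−0.49), the proprotein convertase gene Pcsk6 at 6.79 and 4.93 FPKM (−0.39) and the gelatinase gene Mmp9 at 3.31 and 2.29 FPKM (−0.39). Ctsd, a lysosomal protease and the most abundant of the list, went the other way, at 122 and 152 FPKM (0.31). Mmp2 was the 1 gene of this list at least 1.5-fold lower. Pappa and Pappa2, which encode proteases known to cleave IGF binding proteins, were both below 1 FPKM (0.54 and 0.60, and 0.49 and 0.63). Their inhibitors Stc1 and Stc2 were at 9.42 and 10.5 FPKM and at 7.56 and 6.20 FPKM.

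The relatives of the binding proteins went both ways. Of the 7 measured among 10, 2 were higher and 4 lower beyond counting error (median −0.18), where all measured genes gave 24.6% and 17.6%. Esm1, an endothelial proteoglycan, was at 0.88 and 2.23 FPKM (26 and 67 fragments), with a log2 ratio of 0.79. It was the 1 gene at least 1.5-fold higher. Ctgf, a matricellular growth factor, was at 16.7 and 24.9 FPKM (0.55). Kazald1 was at 7.22 and 4.66 FPKM (−0.54) and the Wnt-induced gene Wisp1 at 2.84 and 2.06 FPKM (−0.33). The most abundant, Cyr61, another matricellular gene, was at 151 and 134 FPKM (−0.18).

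Intracellular signalling genes stayed nearer to the median of all genes. Their medians were 0.04 for 15 receptor adaptor genes, −0.06 for 20 PI3K and AKT genes, 0.06 for 15 genes of the mTOR complexes and 0.04 for 15 RAS and ERK genes. After rescaling to TPM these 4 medians were −0.15, −0.26, −0.14 and −0.16, where that of all genes was −0.17.

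Upstream in the cell, Grb10, an adaptor that restrains both receptors, was at 10.4 and 7.76 FPKM (log2 ratio −0.38), while the adaptor genes Dok1 (17.2 and 22.0 FPKM, 0.34), Gab2 (4.62 and 5.71 FPKM, 0.26) and Grb7 (21.9 and 25.7 FPKM, 0.22) were higher. Rack1, a ribosome-bound scaffold and the most abundant of that list, was at 157 and 180 FPKM. Of the 15 adaptor genes measured, 5 exceeded counting error upward and 3 downward, where all measured genes gave 24.6% and 17.6%.

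Of 20 PI3K and AKT genes, 4 exceeded counting error upward and 4 downward, near the shares of all measured genes (24.6% and 17.6%), and 3 of the 4 higher ones were below 0 under TPM. Inppl1, a lipid phosphatase, was at 15.8 and 13.0 FPKM (−0.26), the transcription factor gene Foxo1 at 5.53 and 4.58 FPKM (−0.23) and the catalytic subunit gene Pik3cb at 3.24 and 3.89 FPKM (0.21). Foxo6, from 80 and 62 fragments, had an interval of the ratio that includes 1. Akt1, the most abundant, was at 36.1 and 34.1 FPKM, a ratio of 0.94 (0.89 to 1.01).

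Among mTOR complex genes, 7 of 15 were higher beyond counting error and 0 lower, against 24.6% and 17.6% of all measured genes; under TPM, 4 of the 7 had log2 ratios below 0 (Rptor, Rheb, Eif4ebp2 and Rps6). Tsc1, which restrains the complex, was at 7.32 and 9.81 FPKM (0.38), the kinase gene Mtor at 11.5 and 14.4 FPKM (0.30) and the inhibitor gene Deptor at 3.25 and 3.83 FPKM (0.18); all of these stayed above 0 under TPM. Rps6, a ribosomal target of the pathway, was at 328 and 371 FPKM (0.18, but −0.03 under TPM). Eif4ebp1, a repressor of translation, was at 8.17 and 7.10 FPKM (−0.18) within counting error.

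Of 15 RAS and ERK genes, 4 exceeded counting error upward and 4 downward, where all measured genes gave 24.6% and 17.6%, and 2 of the 4 higher ones were below 0 under TPM. Spry2, a feedback inhibitor of receptor kinases, was at 20.1 and 13.1 FPKM (−0.58), and its relative Spry4 at 4.32 and 3.32 FPKM (−0.30). Araf, a kinase gene of the cascade, was at 35.0 and 48.5 FPKM (0.46). Dusp6, an ERK phosphatase, was at 45.6 and 41.5 FPKM (−0.13).

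Of 13 measured FOXO targets, which insulin and IGF signals repress, 6 exceeded counting error upward and 1, Irs2 itself, downward. All measured genes gave 24.6% and 17.6%, and 2 of the 6 higher ones were below 0 under TPM. The list median was 0.11, and −0.08 after rescaling to TPM, where that of all genes was −0.17. Pik3ip1, an inhibitor of PI3K, was at 4.71 and 6.95 FPKM (0.48), the cyclin gene Ccng2 at 9.97 and 12.4 FPKM (0.29) and the transcription factor gene Klf15 at 11.4 and 13.6 FPKM (0.23). Txnip, the most abundant, was at 118 and 117 FPKM.

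Growth hormone drives Igf1 through JAK2 and STAT5. Of 8 genes of this route, 2 were lower and 0 higher beyond counting error (median −0.08), where all measured genes gave 17.6% and 24.6%. Stat5b was at 13.4 and 11.3 FPKM (−0.23) and the feedback inhibitor gene Socs3 at 66.1 and 61.6 FPKM (−0.10). Socs1 (4.10 and 4.83 FPKM) and Cish (4.23 and 4.74 FPKM), also feedback inhibitors, had intervals of the ratio that include 1.

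At the imprinted loci of the axis, H19, a maternally expressed noncoding RNA next to Igf2, was at 10.5 and 4.60 FPKM from 367 and 162 fragments, which is a ratio of 0.44 (0.36 to 0.53), or −1.04 on the log2 scale. Airn, the antisense RNA of Igf2r, was at 1.63 and 1.13 FPKM (83 and 58 fragments; −0.31), while Igf2r itself was at the values given above. H19 was the lowest ratio of any measured gene in the pathway lists.

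**Figure D4:**
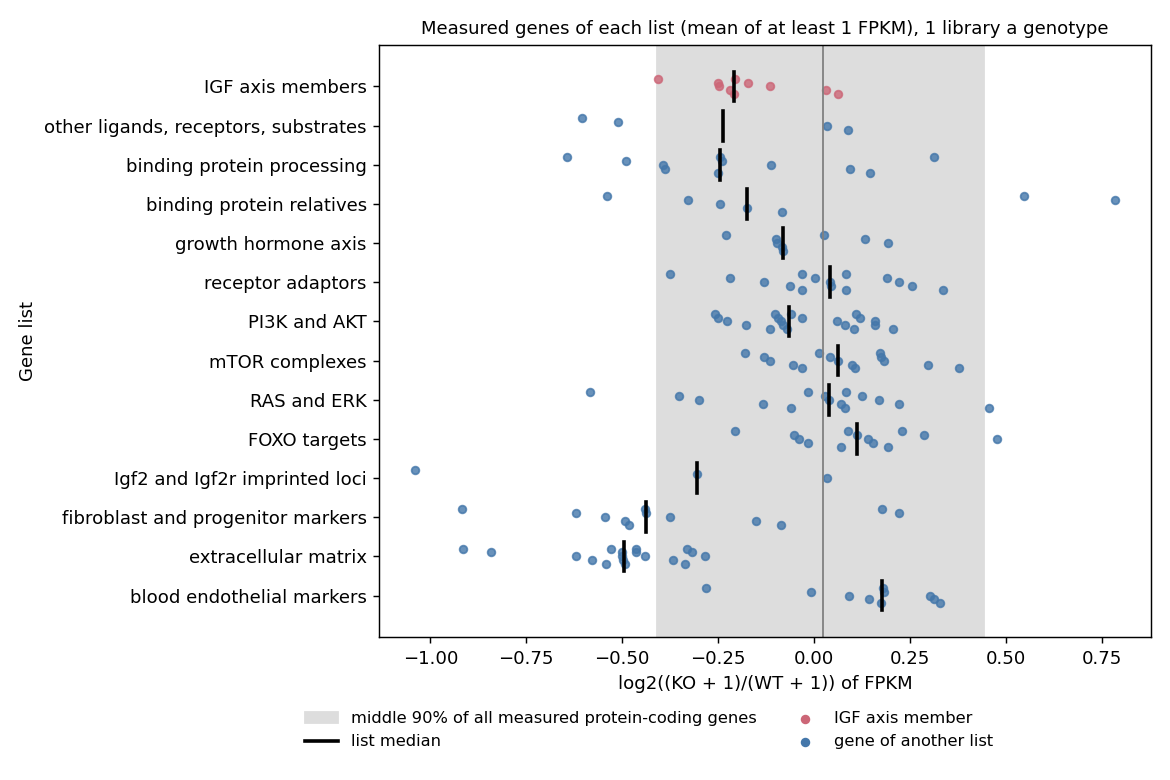
log2((KO + 1)/(WT + 1)) of FPKM for every measured gene of each list (points; red for the 10 IGF axis genes, blue for the other lists, of which FOXO targets repeat Irs2), with the list median as a black bar. The grey band is the middle 90% of all measured protein-coding genes, −0.41 to 0.44, and the IGF axis genes lie within it with their median, −0.21, left of the line at 0.02.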

How the data were processed

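The authors deposited 1 table of FPKM values, with 1 column per library and the gene length, position and biotype. Per the submitters' processing notes, the reads went through HISAT2 2.0.5, with mm10 and hg38 named as builds; the fragment counter, its strand setting and its annotation are not stated in the sources at hand. All 10 members had the same coordinates in GENCODE M21 (GRCm38, also called mm10).

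Fragments were recovered as FPKM times length divided by the value of 1 fragment, and 100% of the values above 0 were whole within 0.05 of a fragment. The value of 1 fragment in the KO library was 0.990 times that in the WT library, while recovered depth was 1.08 times as large. Deposited FPKM were thus not divided by the recovered totals, and how their library size was set is not stated in the sources at hand. Rescaling to TPM or library totals replaces that setting. FPKM was used as deposited, with a pseudocount of 1 FPKM, which understates changes at low levels, and a filter at a mean of 1 FPKM. The 95% intervals are exact: Clopper-Pearson for ratios and shares, Poisson for levels (Python 3.11.15, scipy 1.17.1). Molecular identifiers are not mentioned in the sources used here, so intervals cover counting error only. Recovery and intervals were tested on simulated data. TPM, library totals, other pseudocounts and other folds were the alternatives.

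The members and gene lists were chosen with earlier results of these data known. All members, all other core IGF genes and, per list, the 4 measured genes with the largest log2 ratios in either direction and the most abundant one were named, apart from 1 gene that is not reported here; Pappa, Pappa2, Stc1, Stc2 and markers were named besides, after their values were seen. Promoters come from RefSeq (GRCm38.p6).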

Additional observations from a re-analysis of the deposited data

How the results depend on the processing

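No paired analysis was possible because each genotype has 1 library, and no replicate could be left out. The number of members at least 1.5-fold lower was 0 as reported and 1 (Igfbp6) after rescaling to TPM; at 5/4-fold it was 1, and at a fold of 2 it was 0. The number higher was 0 under every setting tried. Igfbp7 was the 1 member higher beyond counting error, against 24.6% of all measured genes. This count became 0 under TPM and 0 with library totals, where the log2 ratio of Igfbp7 turned from 0.06 to −0.138 and −0.0310. Members lower beyond counting error numbered 7 as reported, against 17.6% of all measured genes, 10 under TPM and 9 with library totals. The shares of all genes under TPM and library totals are not given here. The median of all genes moved from 0.02 to −0.17 and −0.06, so the rise in the count cannot be read as particular to the members. The median log2 ratio of −0.21 moved to −0.41 under TPM and −0.30 with library totals, which by construction shift the ratios of all genes. TPM depends on the sum of FPKM, to which Gm23935, a gene of 57 bases, gave 3.17% in the WT library and 4.71% in the KO library. With a pseudocount of 0.1 or 5 FPKM, 0 of 10 members changed sign. Among the members, Irs1 (271 and 209 fragments) and Igfbp2 (577 and 536) have the fewest fragments.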

Other observations

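Of the genes next to the members, looked at after the values were seen, several differed beyond counting error. Among all measured genes, 24.6% were higher and 17.6% lower beyond it, so such neighbours are common. Those described here were picked, and Rpl37a (ratio 1.19), Spryd3 (1.15), Rhbdd1 (1.15, 1.0001 to 1.31) and Adgrl3 (0.68) also exceeded it. Adgrl3 and Myo16, described next, were below the filter of a mean of 1 FPKM, so they are not among the measured genes. Myo16, an unconventional myosin gene 349938 bases from Irs2 on chromosome 8, had 9 fragments in the WT library and 140 in the KO library (0.08 and 1.24 FPKM), a ratio of 15.4 with a counting interval of 7.89 to 34.4. Col4a1, a basement membrane collagen gene on the other side of Irs2, was at 81.1 and 59.0 FPKM. Top2a, next to Igfbp4, had a ratio of 0.504 (0.46 to 0.55). Tnp1, a spermatid gene next to Igfbp5, had 17 and 50 fragments, a ratio of 2.91 (1.65 to 5.39). In the list of germ cell markers, 6 of 9 measured genes were higher beyond counting error and 2 lower, against the same shares of 24.6% and 17.6%.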
